A study of Mus musculus with 64 samples.

Results

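The 6 loci described here are genes of the mouse table that may collect reads from ribosomal RNA (rRNA): Gm26917, Gm42418, Gm23935, Gm15564, Lars2 and Mir6236. They are 6 of the 49671 rows of the table. They were selected on 2 readouts of these libraries, a large share of the counts or a difference between brain regions, so both readouts are given here as a description and carry no test. The libraries were made from total RNA of microglia, the resident macrophages of the brain, taken from adult male C57BL/6 mice (C57BL6/N in the study's methods) by magnetic sorting on CD11b. The 2 labelled regions (Hippocampus and Frontal_cortex), 2 phases (Day and Night) and 4 conditions (Soci, Cogn, Ctr0 and Ctr1) give 16 groups of 4 libraries, 64 in all, numbered 1 to 4 within each group. All groups shared the strain, the sex and the depletion of rRNA before library preparation. No agent, allele or transgene was named for any group. The labels do not say what the condition names stand for. Nor do they tie Day or Night to lights on or off in mice kept on a reversed light cycle. The study's paper describes microglia taken in the light and in the dark phase, under a heading on day and night. No label says that each library came from its own animal, so p-values measure the spread between libraries, which may be partly technical.

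Ribosomal RNA is the bulk of the RNA in any cell. RNA polymerase I transcribes it in the nucleolus as a long precursor, from which spacers are cut away to leave the small-subunit and large-subunit rRNAs. Kits for total RNA sequencing remove mature rRNA with complementary probes, and reads that escape are often assigned to whatever annotated gene shares sequence with rRNA. In mouse, Gm26917, Gm42418 and Lars2 are often named among such genes. No sequence of large-subunit rRNA was in the reference used here, so a match of the loci to it was not tested.

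In the GENCODE M21 annotation of build GRCm38, Gm26917 (ENSMUSG00000097971) is a long intergenic noncoding RNA at chr17:39843013-39846341 on the plus strand. Gm42418 (ENSMUSG00000098178) follows it on the same strand at chr17:39846958-39848788, 616 bases further on, as a noncoding RNA of 1 exon. CT010467.1, which the annotation calls an rRNA, lies over all 1831 bases of Gm42418 on the opposite strand (chr17:39846353-39848827). Its transcript is 100% identical, in reverse, to the first 1244 bases of Gm42418. Another gene on that strand, AY036118, covers 923 bases of it. Among annotated transcripts, these 2 genes were the ones outside the list that aligned to Gm26917 or Gm42418 over at least 100 bases at 90% identity or more. The first 100 bases of Gm26917, and 100 bases of Gm42418 with the start of the part shared with AY036118 in capitals, are shown because both loci together held most of the counts discussed here.
Gm26917: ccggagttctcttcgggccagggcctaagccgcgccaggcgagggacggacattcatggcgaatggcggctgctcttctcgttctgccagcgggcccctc
Gm42418: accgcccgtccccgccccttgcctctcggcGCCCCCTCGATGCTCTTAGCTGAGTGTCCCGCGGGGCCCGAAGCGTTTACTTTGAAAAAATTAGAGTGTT

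**Figure D1:**
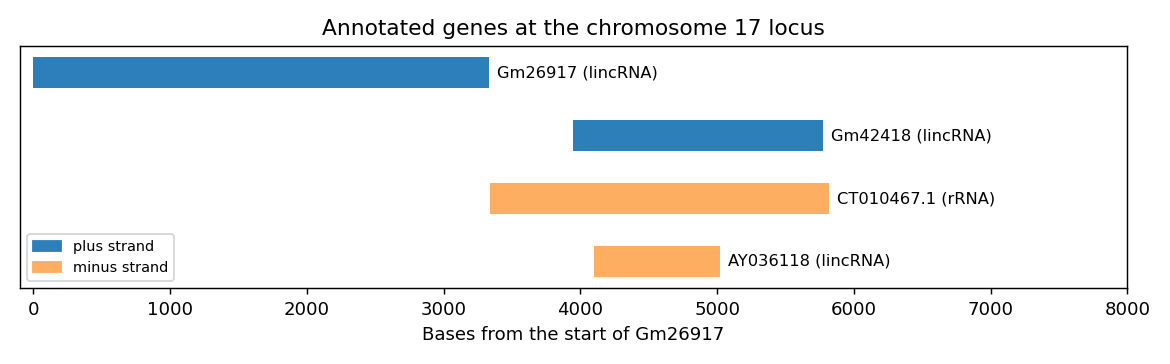
Map of the chromosome 17 locus in bases from the start of Gm26917, with plus-strand genes in blue and minus-strand genes in orange. Gm42418 starts 3945 bases from that start and lies wholly under CT010467.1.

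Gm23935 (ENSMUSG00000076258) is annotated as a miRNA gene of 57 bases at chr16:11144125-11144181 on the plus strand, inside Zc3h7a, which runs the other way. The genes Gm24270 (chr9:56223715-56223771, minus strand) and Gm24245 (chr4:139338304-139338360, plus strand), have the same 57 bases at other places in the genome. Gm24187 (chr13:9834469-9834525, minus strand) differs from it by G11A, counted from 1 at the 5′ end. The base that differs is in capitals below, and the pair is shown because the annotation holds this short sequence several times.
Gm23935: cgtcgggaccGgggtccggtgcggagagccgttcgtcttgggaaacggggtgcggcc
Gm24187: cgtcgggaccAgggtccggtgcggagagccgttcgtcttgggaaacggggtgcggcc

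Mir6236 (ENSMUSG00000098973) is annotated as a miRNA gene of 123 bases on the plus strand of chromosome 9.

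Lars2 (ENSMUSG00000035202), the only protein-coding member, makes the mitochondrial leucyl-tRNA synthetase, which loads leucine onto mitochondrial tRNA. It spans chr9:123366927-123462666 on the plus strand. Gm15564 (ENSMUSG00000086324) is an antisense RNA at chr16:35966752-35983230 on the minus strand, across parts of Parp9 and Kpna1. An alignment of all members found 1 shared stretch between any of the 6, of 72 bases at 98.611% identity, between Gm15564 and the 3′ untranslated region of Lars2 (chr9:123462048-123462119, downstream of the stop codon at chr9:123461676). It is given in capitals within Gm15564, since it is the one sequence that ties 2 members on different chromosomes.
Gm15564: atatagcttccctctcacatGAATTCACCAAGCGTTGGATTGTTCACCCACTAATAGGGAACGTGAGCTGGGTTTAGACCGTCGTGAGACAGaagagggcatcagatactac

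Base composition set 3 of the members apart. GC content was 73.7% in Gm23935, 69.1% in Gm26917 and 60.2% in Gm42418, above that of 99.9%, 99.8% and 94.9% of all annotated transcripts. Mir6236 (56.1%), Lars2 (51.2%) and Gm15564 (48.4%) lay nearer to the transcript median of 49.2%.

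Library totals ranged from 10156071 to 84472229 counts, with a median of 15927536. Outside the 6 loci the libraries held 5660547 to 53488070 counts, with a median of 8959254. Summed markers of microglia were at 10400 to 18100 CPM (counts scaled to a fixed library size) in hippocampus and 10100 to 21400 CPM in frontal cortex. Neuronal markers reached at most 162 CPM, oligodendrocyte markers 367 CPM, endothelial markers 956 CPM and astrocyte markers 2020 CPM. Choroid plexus markers had a median of 662 CPM in hippocampus and 35.5 CPM in frontal cortex. Gm26917 below also had its higher median share in hippocampus. Gm23935, Gm15564, Lars2 and Mir6236 went the other way, with higher medians in frontal cortex. The part of the choroid plexus markers in the regional values was not tested.

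Together the 6 loci took 42.9% ± 7.42 (SD, n = 64) of the counts. The lowest library held 27.2% at these loci (Hippocampus Night Soci replicate 3) and the highest 59.8% (Hippocampus Day Ctr1 replicate 4). The mean was 45.0% ± 8.02 in hippocampus and 40.7% ± 6.20 in frontal cortex (SD, n = 32 each). Most of it came from chromosome 17, where Gm26917 and Gm42418 summed to 43.9% ± 8.06 in hippocampus and 36.8% ± 6.44 in frontal cortex.

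Gm26917 was the row with the highest count in all 64 libraries. Its share in hippocampus was 23.4% in the lowest library, 38.7% at the median and 52.2% in the highest. In frontal cortex it was 19.2%, 30.1% and 51.3%. The regions overlapped, and frontal cortex was the higher of the pair in 5 of 32 pairs of libraries with the same phase, condition and replicate number. Gm42418 ranked 2 by mean share. It ran from 3.54% over a median of 5.63% to 7.89% in hippocampus, and from 3.63% over 5.10% to 14.5% in frontal cortex. Regions did not separate for Gm42418, with frontal cortex higher in 18 of 32 pairs. Its top value, in Frontal_cortex Day Ctr1 replicate 2, stood above the next highest in that region, 9.68%, and the same library had the lowest Gm26917 share of all 64.

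The strand mattered for Gm42418, since CT010467.1 lies opposite. CT010467.1 held 376 to 4598 counts per library, and AY036118 held 0 in every library. AY036118 shares all 923 bases with CT010467.1 on its own strand. Whether strand was used in counting was not stated in the sources, but 303 of the 463 genes whose exons lie wholly under exons of the other strand had counts. The share of them at 0 in all libraries was 34.6%, beside 33.0% for all genes, so reads in such overlaps had been assigned by strand. All 354 genes that the annotation calls cytoplasmic or nuclear rRNA summed to 0.00394% to 0.0285% of a library, and 99 of them had any count. CT010467.1 was the largest of these, followed by Gm24786, Gm24741, Gm22731 and n-R5s174, whose mean shares were 0.000228% or less. The mitochondrial rRNAs mt-Rnr2 and mt-Rnr1 averaged 2.67% and 0.498%.

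Gm23935 ranked 4 of all rows by mean share. In frontal cortex it took 0.113% in the lowest library, 3.61% at the median and 7.21% in the highest. In hippocampus the values were 0.0894%, 0.300% and 3.78%. The medians differed 12-fold, and 14 of the 32 frontal cortex libraries lay above every hippocampal library. The identical copy Gm24270 held 11 to 37496 counts per library, a mean share of 0.04998%, whereas Gm24245 held at most 4 counts. A near copy, Gm25911 (96.491% identity over 57 bases), held 0 to 18339 counts with a median of 12, and Gm24187 held 0 to 485. How reads that map equally well to several copies were treated was not stated, so the split between copies is uncertain.

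Lars2, Mir6236 and Gm15564 were far lower, and each spanned a wide range. Lars2 took 0.00152% to 0.321% in hippocampus (median 0.00414%) and 0.00168% to 1.18% in frontal cortex (median 0.0585%). Mir6236 took 0.000343% to 0.608% in hippocampus (median 0.00202%) and 0.000679% to 1.70% in frontal cortex (median 0.0367%). Frontal cortex medians were 14.1 times those of hippocampus for Lars2 and 18.2 times for Mir6236, yet the regions overlapped for both. Gm15564 had 0 to 425 counts in hippocampus (median 8.5) and 0 to 377 in frontal cortex (median 106.0). It was at 0 in 1 library of each region, Hippocampus Day Ctr1 replicate 4 and Frontal_cortex Day Ctr1 replicate 1, which allows shares of up to 1.76e-05% and 1.92e-05% (limit of 3 counts, for counting error only). The single count in Hippocampus Day Cogn replicate 1 was a share of 5.54e-06% (95% Wilson interval 9.77e-07% to 3.14e-05%). Depth therefore limited Gm15564, while the other members had at least 64 counts in every library.

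**Figure D2:**
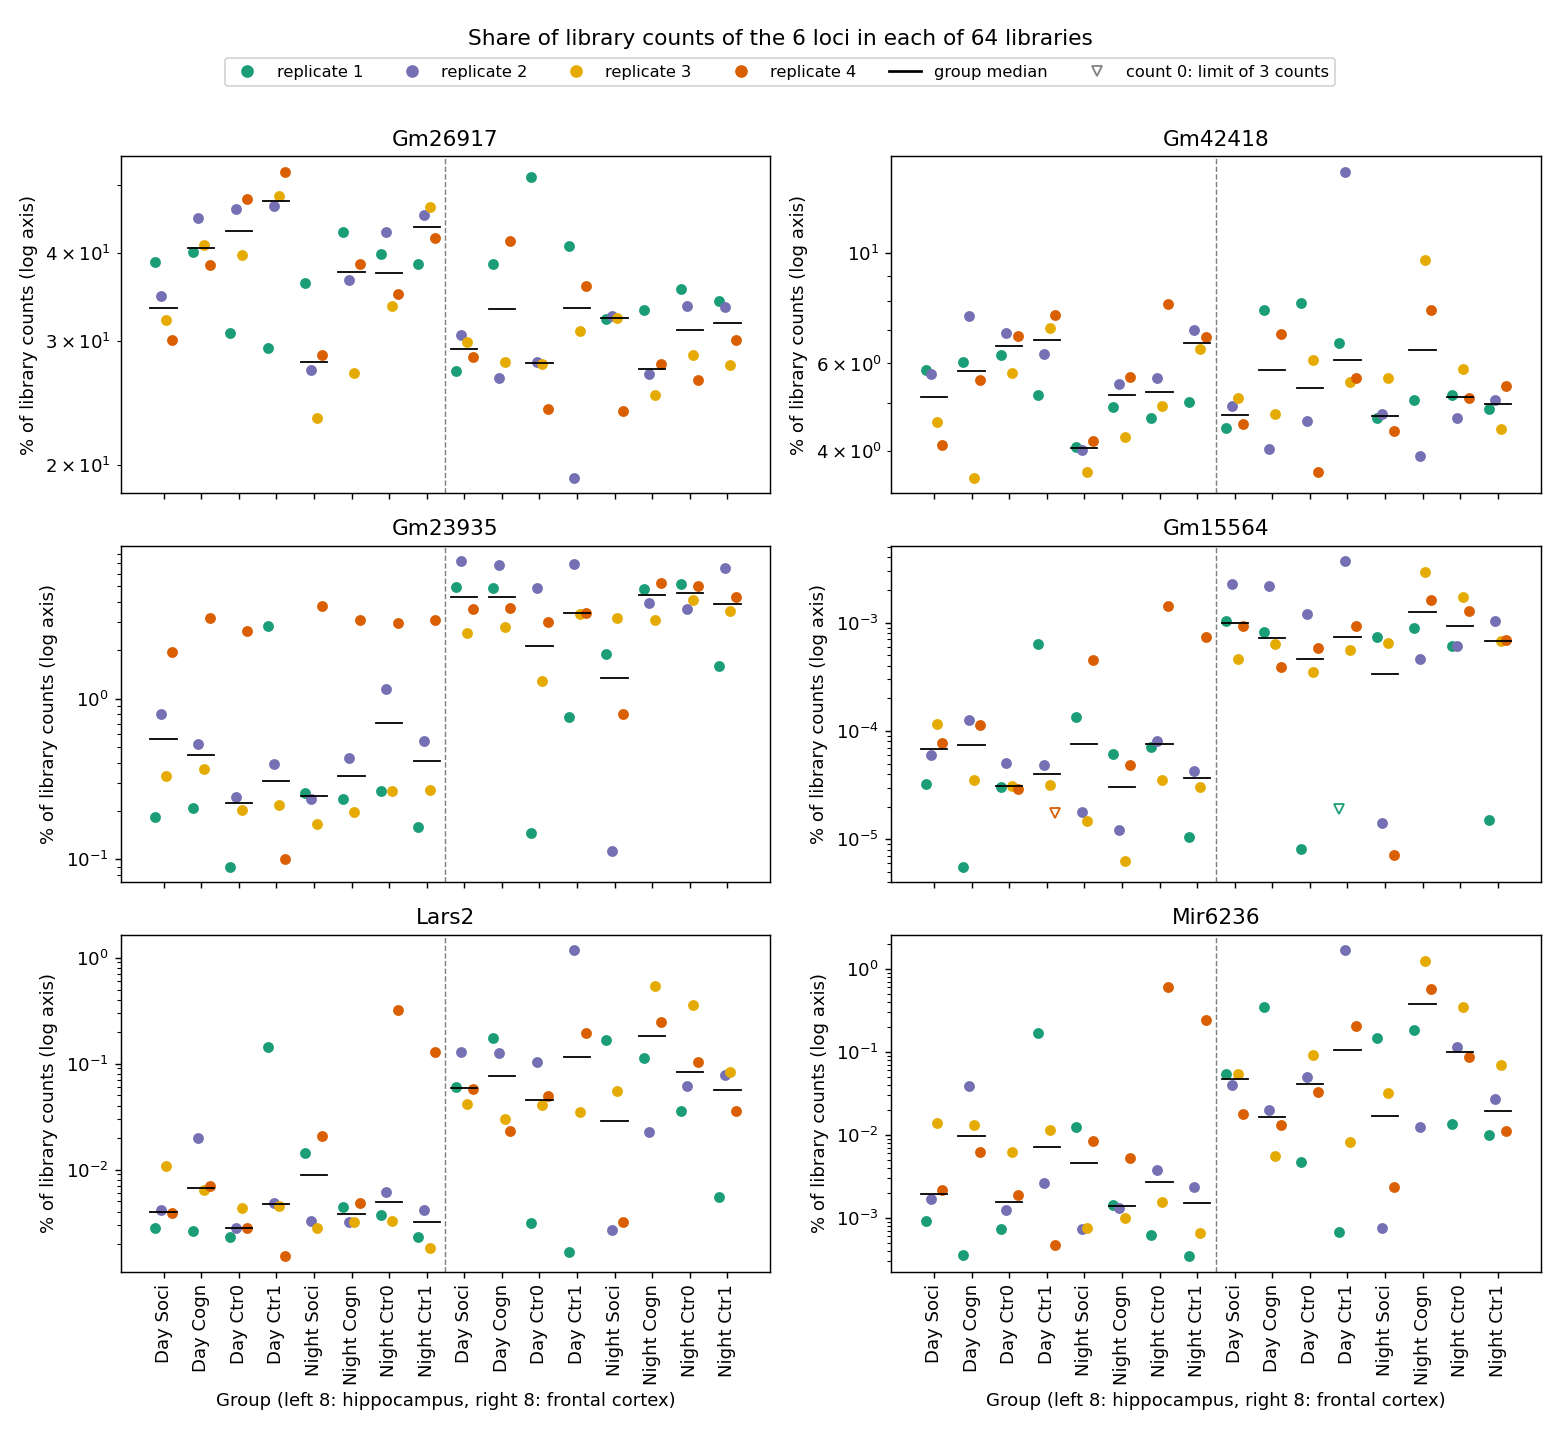
Share of library counts (percent, log axis) of each locus in every library, by group, with hippocampal groups left of the dashed line and colours for replicate numbers. Black bars are group medians and open triangles mark a count of 0, drawn at the limit of 3 counts. In the Gm23935 panel, 7 of 8 hippocampal groups have replicate 4 highest.

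The same hippocampal libraries stood out for several members. The widest gap in hippocampal Lars2 shares lay between 0.0209% and 0.129%, with 29 libraries below it and 3 above. The 3 were Day Ctr1 replicate 1 (0.143%), Night Ctr0 replicate 4 (0.321%) and Night Ctr1 replicate 4 (0.129%), and they were also the 3 highest for Mir6236, at 0.169%, 0.608% and 0.243%. In frontal cortex the widest gap, between 0.00553% and 0.0225%, left 5 libraries on the low side. These were Day Ctr0, Day Ctr1 and Night Ctr1 replicate 1 and Night Soci replicates 2 and 4. Night Ctr0 replicate 4 of the hippocampus also had the highest summed astrocyte markers (1560 CPM) and oligodendrocyte markers (367 CPM) of its region. In hippocampal Day Ctr1 replicate 1 these sums were 232 and 92.6 CPM, ranks 7 and 5 from the lowest of 32. Those of Frontal_cortex Day Ctr1 replicate 2, the top library for Lars2, Mir6236 and Gm42418, were 273 and 103 CPM, ranks 11 and 10 from the lowest of 32.

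Regional differences are given by an edgeR quasi-likelihood fit on counts over all genes, with trimmed-mean (TMM) scaling, as log2 hippocampus minus frontal cortex averaged over phases, ± SE and without a test. In that contrast 16.6% of the 16069 genes tested had an adjusted p under 0.05, and the members were drawn partly from it. The differences were −2.67 ± 0.44 for Gm15564, −2.47 ± 0.56 for Lars2, −2.36 ± 0.73 for Mir6236 and −1.77 ± 0.37 for Gm23935. On chromosome 17 they were 0.43 ± 0.13 for Gm26917 and 0.10 ± 0.13 for Gm42418, and the latter turned to −0.03 with library totals alone and −0.02 without replicate 4. Within replicates 1, 2 and 3 Gm23935 differed by −2.95 ± 0.72, −2.92 ± 0.58 and −3.44 ± 0.25. Within replicate 4 it differed by −0.37 ± 0.48. Lars2 ran from −4.46 ± 0.40 within replicate 3 to −1.87 ± 0.82 within replicate 4. Mir6236 and Gm15564 likewise had their smallest difference within replicate 4, at −1.96 ± 1.10 and −1.76 ± 0.70. In bulk samples fewer cells of a type, less RNA per cell and a difference in rRNA left after depletion cannot be told apart. None of these was tested.

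**Figure D3:**
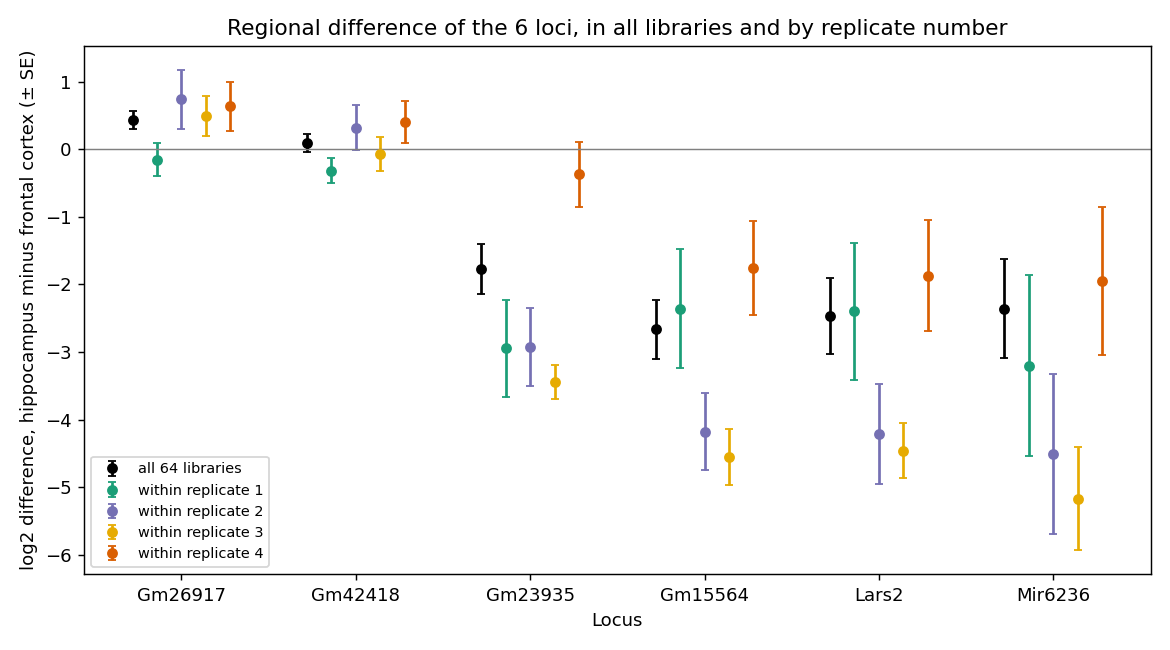
Regional difference of each locus (log2, hippocampus minus frontal cortex, ± SE) in all 64 libraries (black) and within each replicate number (colours, 16 libraries each). The 4 loci outside chromosome 17 lie below 0 in every fit and nearest to 0 within replicate 4.

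The other mitochondrial aminoacyl-tRNA synthetases are set beside Lars2 as a description only, since members were drawn partly on the regional difference. None of the 16 other synthetases passed the regional test, which called 16.6% of 16069 genes. Their median log2 difference was −0.02, beside −0.00 for all genes. The closest to the threshold was Vars2, the valyl enzyme, at 0.13 ± 0.05 (edgeR adjusted p = 0.0593).

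The replicate number was compared within each region because hippocampal Gm23935 had been seen to follow it, so this result is a description of a known pattern. Median hippocampal Gm23935 shares were 0.223%, 0.476% and 0.242% in replicates 1, 2 and 3 and 3.02% in replicate 4. In 7 of 8 groups replicate 4 was the highest. The exception was Day Ctr1, where replicate 1 had 2.82% and replicate 4 had 0.0998%. The other replicate 4 libraries ran from 1.95% to 3.78%, above the remaining libraries of replicates 1 to 3, of which the highest had 1.15%. Replicate 4 also held the deepest libraries: Night Soci, Night Cogn, Day Cogn and Night Ctr0, with 84472229, 65700027, 62238045 and 29798131 counts. Day Soci, Day Ctr0 and Night Ctr1 replicate 4 were not as deep, with 11615344, 17006374 and 12991014 counts. The part of depth in the pattern was not tested. In the edgeR F test over replicate numbers, 0.0235% of 17030 genes were called in hippocampus and Gm23935 was 1 of these 4 genes (adjusted p = 0.0121). The call was lost without replicate 2, 3 or 4 (edgeR adjusted p = 0.129, 0.632 and 0.483). Without Day Ctr1 replicates 1 and 4 the edgeR adjusted p was 1.1e-08. Those libraries are the exceptions to the known pattern, so the fit without them gives it no support. No other member was called in hippocampus. Frontal cortex had 0.0% of genes called and no member, and the Gm23935 medians there were 3.37%, 5.70%, 3.13% and 3.64%. There 3192 of 16448 genes had an unadjusted p under 0.05, and DESeq2 called 1310 genes, no member with an adjusted p under 0.05 among them.

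Day and Night were compared within each region, the contrast at the centre of the study. No member was called in hippocampus, where 5 passed the count filter and 42.2% of 15527 genes were called, nor in frontal cortex, where 6 were tested and 41.8% of 14975 genes were called. Gm26917 took 40.1% ± 7.18 by Day and 36.5% ± 6.97 by Night in hippocampus (SD, n = 16 each). The permutation test of that difference gave p = 0.164, and edgeR gave a log2 difference of 0.29 ± 0.19 (adjusted p = 0.215). In frontal cortex it took 31.8% ± 7.96 and 30.3% ± 3.61 (permutation p = 0.488). Gm42418 took 5.91% ± 1.15 and 5.28% ± 1.21 in hippocampus (permutation p = 0.144), and 6.05% ± 2.59 and 5.40% ± 1.42 in frontal cortex (permutation p = 0.431). For both loci the Day and Night libraries overlapped in both regions, and the differences were smaller than the spread between libraries.

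No direction held for the other 4 loci. In hippocampus the log2 difference, Day minus Night, was −0.23 ± 0.59 for Gm23935, −1.46 ± 0.81 for Lars2 (edgeR adjusted p = 0.146) and −1.95 ± 1.07 for Mir6236 (adjusted p = 0.144). Lars2 and Mir6236 values rested on few libraries. Without Night Ctr0 replicate 4 they were −0.15 and −0.38 (edgeR adjusted p = 0.883 and 0.775). They were −2.57 and −2.95 without both hippocampal Day Ctr1 replicates 1 and 4 (edgeR adjusted p = 0.00903 and 0.0324), where 42.1% of genes were called. Without replicate 1 they were −2.81 and −3.16 (adjusted p = 0.0166 and 0.0460), with 28.2% of genes called. Without replicate 4 they were 1.95 and 3.26 (adjusted p = 0.0157 and 0.00493), with 32.5% called, and DESeq2 gave 1.38 for Mir6236 (adjusted p = 0.0358), with 42.5% called. The sign of the call thus depended on which libraries were left out. In frontal cortex the differences were 0.11 ± 0.38 for Gm23935, 0.22 ± 0.51 for Gm15564, 0.31 ± 0.68 for Lars2 and −0.03 ± 0.87 for Mir6236. Over the 12 tests of shares, 6 loci in 2 regions, the smallest adjusted p was 0.895.

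**Figure D4:**
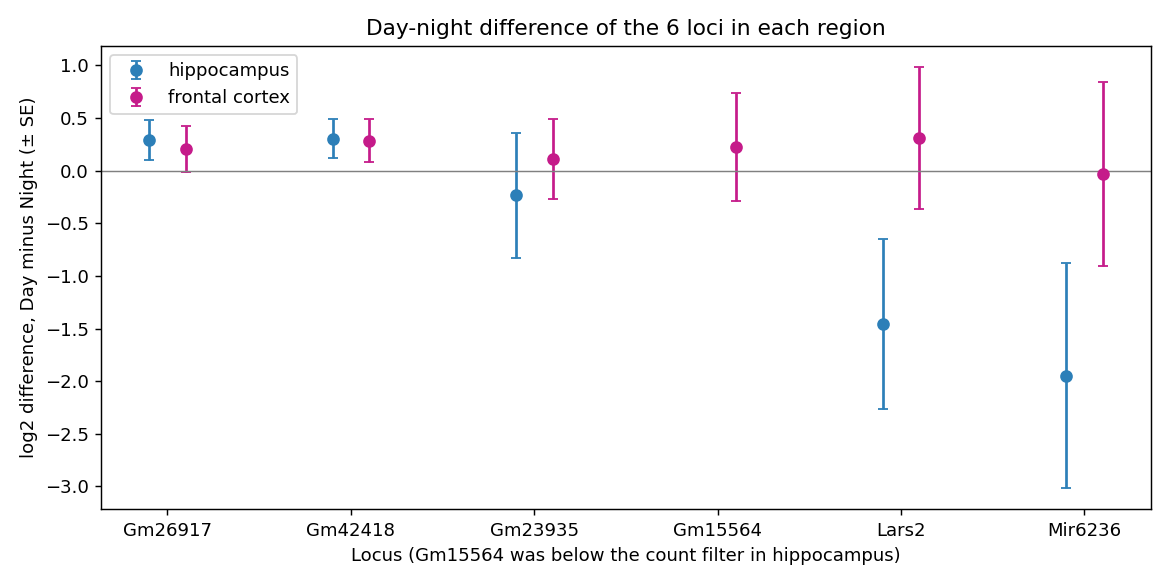
Day-night difference of each locus (log2, Day minus Night, ± SE) in hippocampus and frontal cortex, from the edgeR fit of each region. Error bars of Lars2 and Mir6236 in hippocampus (0.81 and 1.07) are wider than those of Gm26917 and Gm42418 (0.19 and 0.18).

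The day-night difference itself did not differ detectably between regions for any of the 6 members, in a test that called 1.19% of 16069 genes. The largest gap was that of Mir6236, −1.94 ± 1.40 (log2, hippocampus minus frontal cortex, edgeR adjusted p = 0.738).

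The 4 conditions were compared next. In hippocampus the mean Gm26917 share was 31.4% ± 5.09 in Soci, 38.7% ± 5.39 in Cogn, 39.5% ± 6.01 in Ctr0 and 43.6% ± 7.05 in Ctr1 (SD, n = 8 each). Soci libraries spanned 23.4% to 38.8% and Ctr1 libraries 29.3% to 52.2%, so the groups overlapped. Gm42418 had the same order of means, at 4.52% ± 0.81, 5.36% ± 1.18, 6.10% ± 1.08 and 6.40% ± 0.89. Permutation F tests over the 4 conditions gave p = 0.00356 for Gm26917 and 0.00435 for Gm42418, both 0.0261 after adjustment over 12 tests. The relation of Gm26917 share to condition in hippocampus was already known when these tests were set. Without replicate 4 the p was 0.0708 and 0.109. Without replicate 2 it was 0.0512 for Gm26917 and 0.0115 for Gm42418. The permutation p was 0.0453 and 0.0251 without replicate 3, and 9e-05 and 0.00166 without replicate 1. Leaving out Day Ctr1 replicates 1 and 4 gave 0.00098 and 0.00631.

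Across all genes, the edgeR F test called 0.0% of 16826 genes for condition in hippocampus, and no member. For Gm42418 the edgeR p was 0.000963 and for Gm26917 0.00564, both with an adjusted p of 0.668. There 4 of the 6 members and 1090 genes had an unadjusted p under 0.05, and DESeq2 called 6 genes, or 0.0357%. Among these was Gm42418 (DESeq2 adjusted p = 0.0495), while Gm26917 had 0.0918. Scaled by library totals alone the edgeR adjusted p was 0.0441 for Gm42418 and 0.04996 for Gm26917, in a fit that called 3862 genes, or 23.0%. Without replicate 1 it was 0.0354 and 0.0319, with 328 genes called, or 1.97%. In frontal cortex the permutation tests of shares gave p = 0.909 for Gm26917 and 0.359 for Gm42418. There 0.0% of 16238 genes were called by edgeR, no member among them, DESeq2 called 1 gene, and 1094 passed an unadjusted 0.05. In edgeR the day-night change did not differ detectably among conditions for any member. That test called 0.0% of 16826 genes in hippocampus, where 2 members had an unadjusted p under 0.05, and 0.00616% of 16238 in frontal cortex. In hippocampus 695 genes had an unadjusted p under 0.05 and DESeq2 called 12, or 0.0713%, beside 10, or 0.0616%, in frontal cortex. DESeq2 called Gm26917 in both regions, where the deviance of its fit was 160900 and 75640, against 1013 and 989.6 for the same gene in the DESeq2 condition test.

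Mutual relations were measured within each region on log2 shares, with 0.5 counts added because Gm15564 was at 0 in 1 library of each region. Shares of a library have a common denominator, so they are not free of each other. Hippocampal Gm23935 fell into separate clusters that followed replicate number except in Day Ctr1, where replicates 1 and 4 were the other way round. Its relations were taken within replicates 1 to 3 (n = 24) and within replicate 4 (n = 8). Each subset thus held a Day Ctr1 library of the other cluster. In all there were 35 relations. Of these, 8 of 20 in hippocampus and 9 of 15 in frontal cortex had an adjusted permutation p under 0.05 (exact where n = 8).

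Among the 4 loci outside chromosome 17, 7 of 9 hippocampal and 6 of 6 cortical relations were called. Lars2 and Mir6236 had r = 0.941 and rho = 0.923 in hippocampus, and r = 0.917 and rho = 0.908 in frontal cortex (permutation p = 1e-05 for each, the smallest that 100000 permutations can give). Lars2 and Gm15564 had r = 0.887 and 0.927 in the 2 regions (rho = 0.854 and 0.892). Without the 2 libraries farthest on the x axis the r of Lars2 and Mir6236 was 0.906 and 0.882, and that of Gm15564 and Lars2 was 0.868 and 0.902. Because Lars2 shares have a gap in each region, r was also taken on the larger side of it, over 29 and 27 libraries. Lars2 and Mir6236 then had r = 0.862 and 0.884, and Gm15564 and Lars2 had r = 0.804 and 0.849 (permutation p = 1e-05 for each).

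Gm23935 was the loosest of the 4. In frontal cortex its r was 0.838 with Gm15564, 0.75 with Lars2 and 0.586 with Mir6236. On the larger side of the Lars2 gap these were 0.614 (adjusted permutation p = 0.00284), 0.317 (0.188) and 0.0634 (0.776), so the last 2 relations rested on the 5 low libraries. In hippocampal replicates 1 to 3 its r was 0.667, 0.728 and 0.629 with Gm15564, Lars2 and Mir6236 (adjusted permutation p = 0.00213, 0.00236 and 0.00458). In replicate 4 (n = 8) they were 0.772, 0.489 and 0.535, with adjusted exact permutation p of 0.0488, 0.316 and 0.315, so the last 2 were not called. Without the 2 libraries farthest on the x axis, r in replicate 4 was 0.404, 0.163 and 0.0235. On the larger side of the Lars2 gap (n = 6) r in replicate 4 was 0.879, 0.717 and 0.897. The adjusted exact permutation p were 0.059, 0.258 and 0.0133, so only the relation with Mir6236 was called there. In replicates 1 to 3 without Day Ctr1 replicate 1, the library above the gap, they were 0.456, 0.463 and 0.41, with adjusted p of 0.0624, 0.0624 and 0.0992.

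On chromosome 17, Gm26917 and Gm42418 had r = 0.681 and rho = 0.673 in hippocampus (permutation p = 2e-05 and 6e-05) and r = 0.605 without the 2 farthest libraries. In frontal cortex r was 0.0333 (p = 0.854) and rho 0.351 (p = 0.0496, adjusted 0.116), with r = 0.35 without the 2 farthest libraries. The ratio of Gm26917 to Gm42418 counts ran from 4.44 to 11.6 in hippocampus (median 6.84) and from 1.32 to 7.19 in frontal cortex (median 6.15). Between the chromosome 17 pair and the other 4, 0 of 10 hippocampal and 3 of 8 cortical relations were called. These were Gm26917 with Gm15564 (r = −0.472, rho = −0.394) and with Lars2 (r = −0.468, rho = −0.279), and Gm42418 with Mir6236 (r = 0.452, rho = 0.295). Without the 2 farthest libraries they were −0.277, −0.219 and 0.145, so all 3 rested on those libraries. On the larger side of the Lars2 gap Gm42418 had r = 0.674 with Mir6236 and 0.647 with Lars2 (adjusted permutation p = 0.000408 and 0.00232), with rho = 0.443 and 0.321, and Gm26917 had r = −0.498 with Gm15564 (adjusted p = 0.0235).

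**Figure D5:**
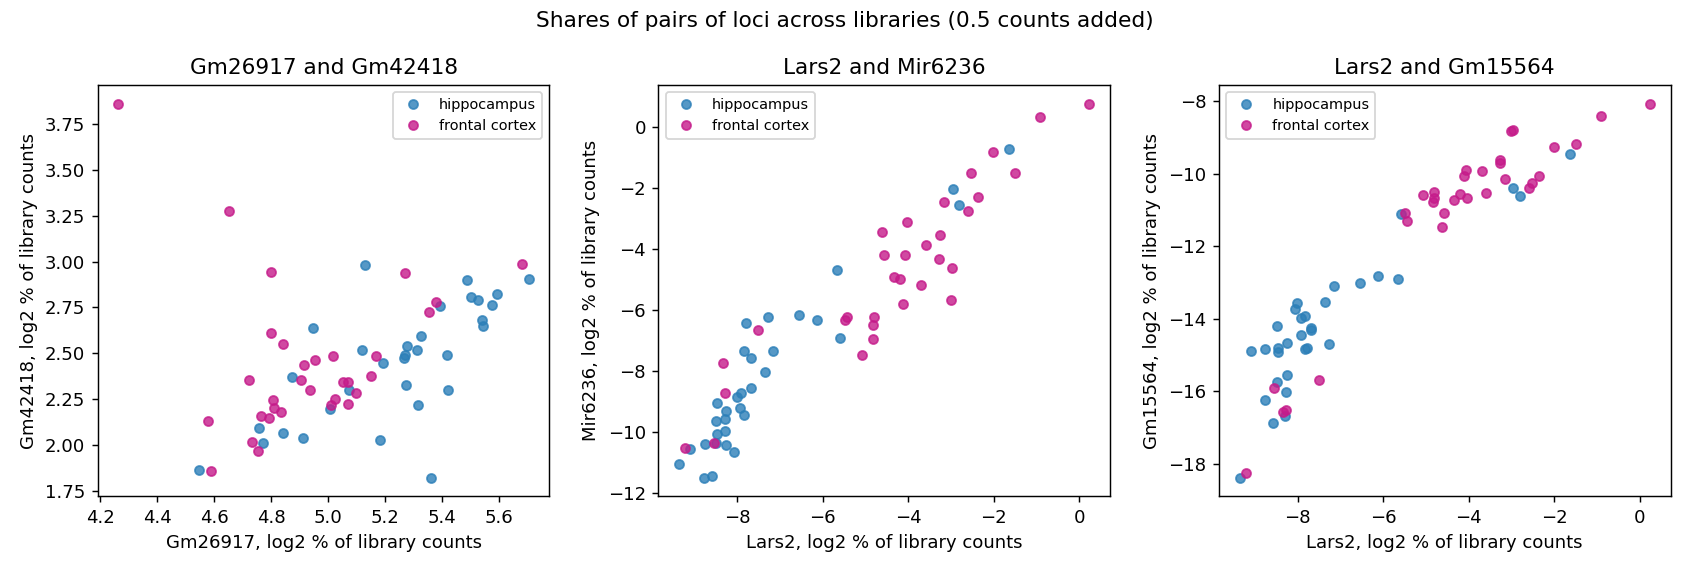
Log2 percent shares of 3 pairs of loci, each point 1 of 64 libraries, hippocampus in blue and frontal cortex in magenta. Lars2 rises with Mir6236 (r = 0.941 and 0.917) and with Gm15564 (r = 0.887 and 0.927) in both regions, while Gm26917 and Gm42418 follow each other in hippocampus (r = 0.681) with 2 frontal cortex libraries far above the rest.

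Likeness to other genes was measured by the mean of the within-region Spearman rho of log2 CPM, over 10940 genes and 32 libraries a region. The genes nearest to Gm26917 were Sptbn4 (mean rho 0.903), a spectrin of axons, Lmtk3 (0.892), a kinase, and CAAA01147332.1 (0.879). Gm42418 had looser neighbours, Tesk1 (0.678), Scarna13 (0.674) and Atp2a2 (0.674). The gene nearest to each of the other 4 members was Gm24270, the identical copy of Gm23935, with 0.902 for Gm23935, 0.774 for Gm15564, 0.724 for Lars2 and 0.613 for Mir6236. Their next neighbours were Tshz1 (0.56) and Rab6a (0.555) for Gm23935, and Gm25291, a small nucleolar RNA, for the other 3 (0.456, 0.501 and 0.532). Nudc (0.446), Sp2 (0.448) and Nectin1 (0.411) came next for Gm15564, Lars2 and Mir6236.

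Genes that make or process rRNA were taken from lists chosen with earlier results of these data known. Of 15 genes of RNA polymerase I and its factors, 7 (46.7%) were higher by Day in hippocampus and 0 lower, beside 42.2% of all genes called in either direction. The median log2 difference was 0.12 beside 0.02 for all genes tested, and with DESeq2 size factors 4 were higher and 1 lower. Examples are Cd3eap (0.32 ± 0.07, edgeR adjusted p = 0.000338) and Twistnb (0.26 ± 0.06, adjusted p = 0.000772), both polymerase I subunits. In frontal cortex 8 were higher and 1 lower, 9 of 15 beside 41.8% of all genes (median 0.15 beside −0.02). Those higher included Polr1e (0.40 ± 0.09), a subunit, and Rrn3 (0.20 ± 0.05), an initiation factor. The gene that was lower was Taf1b (−0.22 ± 0.05), part of the promoter selectivity factor.

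Of 29 genes of pre-rRNA processing, 15 were higher by Day and 1 lower in each region, or 55.2% beside 42.2% of all genes in hippocampus and 41.8% in frontal cortex. The medians were 0.14 in both, and with DESeq2 size factors the hippocampal counts were 11 and 2. Heatr1, which acts early in processing of the small-subunit rRNA, was higher by 0.41 ± 0.04 in hippocampus and 0.36 ± 0.04 in frontal cortex (edgeR adjusted p = 2.65e-10 and 1.06e-07). Ddx21, a nucleolar helicase, was higher by 0.38 ± 0.04 and 0.47 ± 0.06. These directions depended on scaling. With library totals alone no gene of either list was called higher in hippocampus, the medians there were −0.02 for polymerase I and −0.01 for processing, and the median of all genes was −0.14. In frontal cortex the counts fell to 0 higher and 1 lower for polymerase I and 2 higher and 1 lower for processing, with medians of 0.08 and 0.07 beside −0.09 for all genes. That scaling called 262 genes higher and 4031 lower by Day in hippocampus, against 3637 and 2913 with TMM, and 653 and 3412 in frontal cortex, against 3083 and 3183.

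Of the 16 mitochondrial aminoacyl-tRNA synthetases other than Lars2, 1 was higher and 2 lower by Day in hippocampus, and 2 higher and 3 lower in frontal cortex. These are 18.8% and 31.2% of the list, below the 42.2% and 41.8% of all genes. Ears2, the glutamyl enzyme, was higher in both (0.53 ± 0.08 and 0.44 ± 0.05), and Pars2, the prolyl enzyme, lower in both (−0.21 ± 0.08 and −0.27 ± 0.08). Among 7 other structured noncoding RNAs tested of 9 listed, the mitochondrial rRNAs were lower by Day. The log2 difference of mt-Rnr2 was −0.84 ± 0.17 in hippocampus and −0.97 ± 0.19 in frontal cortex (edgeR adjusted p = 0.000132 and 0.000189), and that of mt-Rnr1 was −0.95 ± 0.26 and −1.03 ± 0.24. In frontal cortex Rn7sk, which restrains transcription elongation, and Rpph1, the RNA of ribonuclease P, were higher by 0.49 ± 0.12 and 0.45 ± 0.12. In both regions, no gene of these lists was called for condition, replicate number or an interaction in the edgeR tests.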

How the data were processed

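Microglia were profiled by total RNA sequencing in 64 libraries. Per the labels, RNA input was 50 ng with an NEBnext rRNA depletion kit. The study's methods give another input and another product code for the depletion kit, and which applies here is not settled by the sources. The authors aligned reads with STAR 2.7.3a to build GRCm38.p5 and deposited raw gene counts made with featureCounts (Subread 2.0.0). Whether counting used strand, and how multiply mapped reads were handled, is not given in the sources used here.

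Each library's group came from its labels, and the share of a locus is its count over the library total. Tests were edgeR 4.0.16 quasi-likelihood fits on the deposited counts (R 4.3.3) with TMM scaling and Benjamini-Hochberg adjustment over all genes tested (threshold 0.05). DESeq2 1.42.0 was an alternative. Shares were tested with 100000 permutations. Sequences were aligned with BLAST 2.17.0 and annotated with GENCODE M21. Day-night, condition and replicate tests were run within each region. The plan held 30 correlations, and splitting hippocampal Gm23935 by replicate number made 35. On simulated counts with 200 genes changed by 2-fold, the hippocampal day-night fit recovered 198 with 12 false calls among 15527 genes. The cortical day-night fit recovered 197, and the hippocampal replicate and condition fits 193 and 187. The fit of day-night change between regions recovered 187, and that among conditions in hippocampus 152. Simulated libraries differed only by depth, the set changes and independent noise, without a replicate pattern or outlying libraries. Recovery there does not measure the power for the members. No libraries were identical. Depth ran from 10156071 to 84472229 counts, and intervals and limits cover counting error only.

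The members and lists were chosen with earlier results of these data known. All members were named, with the 3 genes most like each. Genes aligned to Gm26917 or Gm42418, copies of Gm23935 and up to 5 rRNA genes were also named. Up to 4 genes per list and test were taken by lowest adjusted p. Alternatives covered scaling, filters on low counts, DESeq2, a replicate block and leaving libraries out. The sequence of Mir6236 is not reported here.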

Additional observations from a re-analysis of the deposited data

Results flagged for a closer look

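In 96 sets of 4 libraries (6 loci in 16 groups), 5 libraries stood apart from the other 3 of their group by Dixon's criterion on log2 shares, or 5.21%, and chance flags about 1 in 20 groups. The scale matters: on percent shares 25 sets passed the criterion. Of these, 19 were hippocampal, among them 6 of 8 for Gm23935, with replicate 4 highest in 5 of the 6. Values below are percent shares of the 5 sets that passed on the log2 scale. Gm26917 took 23.91% in Frontal_cortex Night Soci replicate 4, below 32.27% to 32.58% in the others. Gm23935 took 3.784% in Hippocampus Night Soci replicate 4, above 0.1655% to 0.2594%. Lars2 took 0.3205% in Hippocampus Night Ctr0 replicate 4, above 0.003285% to 0.006119%. Gm15564 took 1.508e-05% in Frontal_cortex Night Ctr1 replicate 1, below 0.0006732% to 0.00103%, and 5.042e-05% in Hippocampus Day Ctr0 replicate 2, above 2.94e-05% to 3.128e-05%. The cause was not tested.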

How the results depend on the processing

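Counts of called members moved as follows. In the hippocampal day-night fit, 0 members were called by edgeR, 1.0 by DESeq2 and 2.0 without hippocampal Day Ctr1 replicates 1 and 4. These fits called 42.2%, 42.5% and 42.1% of all genes. With 1 replicate number left out, 0.0 to 2.0 members were called, beside 28.2% of genes without replicate 1 and 32.5% without replicate 4. For condition in hippocampus, 0 were called by edgeR (0.0% of all genes), 1.0 by DESeq2 (0.0357%) and 2.0 with library totals alone (23.0%). With 1 number left out, 0.0 to 2.0 were called, beside 1.97% of genes without replicate 1. For the day-night change among conditions, DESeq2 called 1.0 in hippocampus (0.0713% of all genes) and 1.0 in frontal cortex (0.0616%). By edgeR 0 were called (0.0% and 0.00616% of all genes). Leaving out a number gave 0.0 to 1.0 members called by replicate number in hippocampus (23 of 16671 genes without replicate 1). For shares it gave 0.0 to 2.0 members with p under 0.05 by condition in hippocampus, 0.0 to 2.0 in frontal cortex and 0.0 to 1.0 by phase in hippocampus. Called hippocampal relations fell from 8 to 4.0 without the 2 farthest libraries and 5.0 without the smaller side of the Lars2 gap, and were 4.0 to 7.0 when a number was left out. The cause was not tested for any of these, beyond fewer libraries where some were left out.

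No source ties a replicate number to an animal, litter or day, and not every same-numbered pair correlated above 0.1, so the numbers were not taken to pair the libraries. Pairwise correlations of deviations went down to −0.635 in hippocampus and −0.498 in frontal cortex. The median correlation of same-numbered deviations ran from −0.000127 to 0.0783 in hippocampus and −0.0278 to 0.241 in frontal cortex, and 16 of 32 and 11 of 32 libraries were closest to one with their own number. Libraries of 1 number did share some variation, as hippocampal Gm23935 in replicate 4 shows. With the replicate block, 0 members were called in the day-night, condition and interaction fits, as without it. The log2 day-night difference turned to 0.3584 for Gm23935, 0.7041 for Lars2 and 2.243 for Mir6236 in hippocampus, and to −0.01203 for Gm15564 and −0.09984 for Lars2 in frontal cortex. The difference between regions in day-night change turned to 0.1125 for Gm23935 under the block. The regional difference of Gm23935 itself was −2.43 ± 0.35 there.

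Signs also turned elsewhere. By DESeq2 the day-night difference was 0.1782 for Lars2 and 1.38 for Mir6236 in hippocampus, and −0.6552 for Lars2 in frontal cortex. On log2 shares it was 0.1901 for hippocampal Mir6236 and −0.009918 for cortical Lars2. The regional difference of Gm42418 was −0.03359 with library totals alone and −0.02007 to 0.229 when a number was left out. The cortical r of Gm26917 and Gm42418 was −0.0207 on percent shares, −0.19 without the smaller side of the Lars2 gap and −0.256 to 0.441 when a number was left out.

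When 1 replicate number or 1 doubted library was left out, the log2 day-night difference in hippocampus ran from −0.5063 to 0.5383 for Gm23935, −2.814 to 1.949 for Lars2 and −3.155 to 3.262 for Mir6236. In frontal cortex it ran from −0.8172 to 0.8324 for Gm15564, −0.2701 to 0.2545 for Gm23935, −1.183 to 1.31 for Lars2 and −1.534 to 1.145 for Mir6236. The gap between regions in day-night difference ran from −2.372 to 0.7198 for Gm15564, −0.7125 to 0.347 for Gm23935 and −0.1075 to 0.3142 for Gm26917. That gap ran from −0.2226 to 0.1325 for Gm42418, −3.203 to 1.516 for Lars2 and −3.398 to 3.042 for Mir6236. In percent share, Day minus Night in hippocampus ran from −0.0001821 to 5.656e-05 for Gm15564, −0.4358 to 0.183 for Gm23935, −0.03582 to 0.01295 for Lars2 and −0.06481 to 0.01941 for Mir6236. In frontal cortex it ran from −0.000426 to 0.0005084 for Gm15564, −0.6963 to 0.59 for Gm23935, −0.08564 to 0.102 for Lars2 and −0.1565 to 0.1092 for Mir6236. Another 18 relations were not called, of which 13 changed sign under some alternative. Depth limited Gm15564, with a hippocampal median of 8.5 counts.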
